A study of Bos taurus with 8 samples.

Results

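The oxidative phosphorylation subunit genes encode the protein chains of the 5 enzyme complexes of the mitochondrial inner membrane, and the mobile carrier cytochrome c. Genes were taken by symbol, from the families of complex I (NDUF), complex II (SDH), complex III (UQCR and CYC1), complex IV (COX4 to COX8, NDUFA4 and NDUFA4L2) and the ATP synthase (ATP5), with cytochrome c (CYCS). Of 37063 genes in the bovine reference table, 90 fitted these families, 84 had a matched probe on the array and 83 were detected. Across the array, 12603 genes had a matched probe and 10860 were detected. Detection asked that 1 of a gene's probes pass the scanner's background test on 4 or more of the 8 arrays.

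Liver RNA came from Japanese Black fetal calves at 8.5 months of gestation. The dams of the LN fetuses (n = 4, named L5, L6, L8 and L9) received 60% of their nutritional requirement through gestation, and those of the HN fetuses (n = 4, named L1, L2, L3 and L10) received 120%. By the study's methods, the dams were inseminated with sorted semen of 1 sire for male calves, and the heaviest fetuses of HN and the lightest of LN were chosen, so the groups also differ in body weight by selection, and no group was fed the requirement itself. The labels give 1 fetus per 1-colour Agilent bovine array, while the general description speaks of RNA pooled by group, and the 8 arrays were treated as 8 fetuses.

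Complexes I and II take electrons from NADH and succinate, and hand them to ubiquinone. Complex III passes them to cytochrome c, and complex IV passes them on to oxygen. Complexes I, III and IV move protons across the membrane, and the ATP synthase, complex V, uses their return to make ATP. Most of the subunits are encoded in the nucleus, and several complex IV subunits and the ATP synthase c subunit exist as isoforms made by separate genes, some of them typical of heart and skeletal muscle. Near birth, the liver gains mitochondrial capacity as it takes over glucose production and fat oxidation from the placental supply.

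The 4 LN arrays lay on 1 slide and the 4 HN arrays on another, in separate scans, so that slide, scan and nutrition cannot be told apart. Between 32635 and 34369 of 43803 spots per array were well above background, and 0 were saturated. Of 10 hepatocyte markers listed, 9 were detected, and their summed log2 signal was between 20.91 and 21.04. This sum rests on the brightest probes of the array, which quantile normalization sets to like values in every fetus, while the dimmer CPS1 ran from 14.74 to 16.62 and AFP from 16.09 to 17.47. Blood cell markers differed between fetuses: the summed signal of 8 detected erythroid genes of 12 listed was 17.09 in LN fetus L5 and between 13 and 14.99 in the other fetuses. All 8 erythroid genes had a higher mean in LN. Neutrophil markers were between 13.26 and 14.81 in LN and between 12.4 and 13.68 in HN, and 8 of 9 detected had a higher mean in LN, while 5 of 5 detected lymphocyte markers had a lower one. Their part in the values below was not tested. In whole liver, fewer cells of a type and less RNA per cell cannot be told apart.

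The signals of the subunit genes differed little between LN and HN liver. All values are log2 of the background-subtracted probe signal after quantile normalization, differences are LN minus HN, and the brightest detected probe stands for a gene. Of 83 genes, 33 had a higher and 50 a lower mean in LN. The median difference was -0.015 (quartiles -0.070 and 0.049), beside 0.0075 (quartiles -0.132 and 0.142) over all 10860 genes, of which 51.6% were higher in LN. Differences ran from -0.79 for COX4I2 to 0.45 for COX8B, and 3 genes, COX4I2, COX7A1 and COX8B, all subunits of complex IV, differed by more than 1.25-fold. The number was 0 under normexp, 2 with the log2 values of the authors, and 2 to 5 as single fetuses were left out. Over all genes, 16.4% did so, 129 differed by more than 2-fold, and the range was -3.47 to 3.65.

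**Figure D1:**
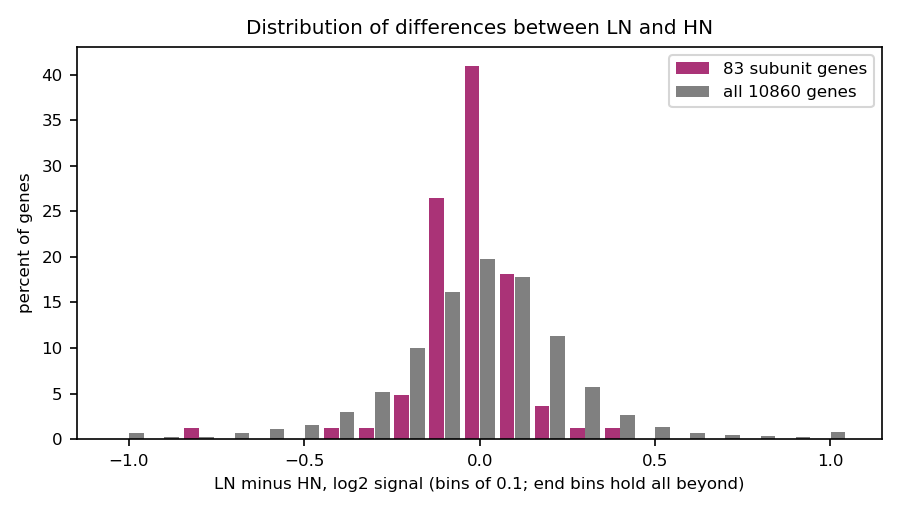
Distribution of the LN minus HN difference in log2 signal (x axis, bins of 0.1, with end bins holding everything beyond) as the percentage of genes (y axis), for the 83 subunit genes and for all 10860 detected genes. The bin around 0 holds 41% of the subunit genes and 19.8% of all genes.

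No subunit gene passed an adjusted limma p of 0.05, and neither did any of the 10860 genes (0% called). The lowest adjusted p was 0.76 among the subunit genes and 0.634 among all probes. A test that takes each gene's spread alone also gave 0 genes after adjustment. At an unadjusted limma p of 0.05, 1 subunit gene was lower in LN (COX4I2) and 0 were higher, where 2.75% of all genes were lower and 3.3% higher. In 0 subunit genes did the 4 LN values and the 4 HN values not overlap, beside 2.59% of all genes without overlap and higher in LN, and 1.56% without overlap and lower.

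Differences between groups were small beside the differences between fetuses of 1 group. The difference was below the within-group SD in 74 of 83 subunit genes (89.2%), and in 73.6% of all genes. The median size of a difference was 0.060 in the subunit genes and 0.138 in all genes, and the median within-group SD was 0.161 and 0.232. The probes of the subunit genes were also brighter, with a median log2 signal of 13.2 beside 9.37 over all genes, and the part of brightness in their spread was not tested. Of the subunit genes, 71.1% lay within 0.1 of no difference and 92.8% within 0.2, while 38.4% and 66% of all genes did. The 95% interval of the difference stayed inside 1.5-fold in either direction for 75 of the 83 genes and inside 2-fold for 81 of them. The intervals leave room for changes up to those sizes, and a p above the threshold does not show that the groups were alike.

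**Figure D2:**
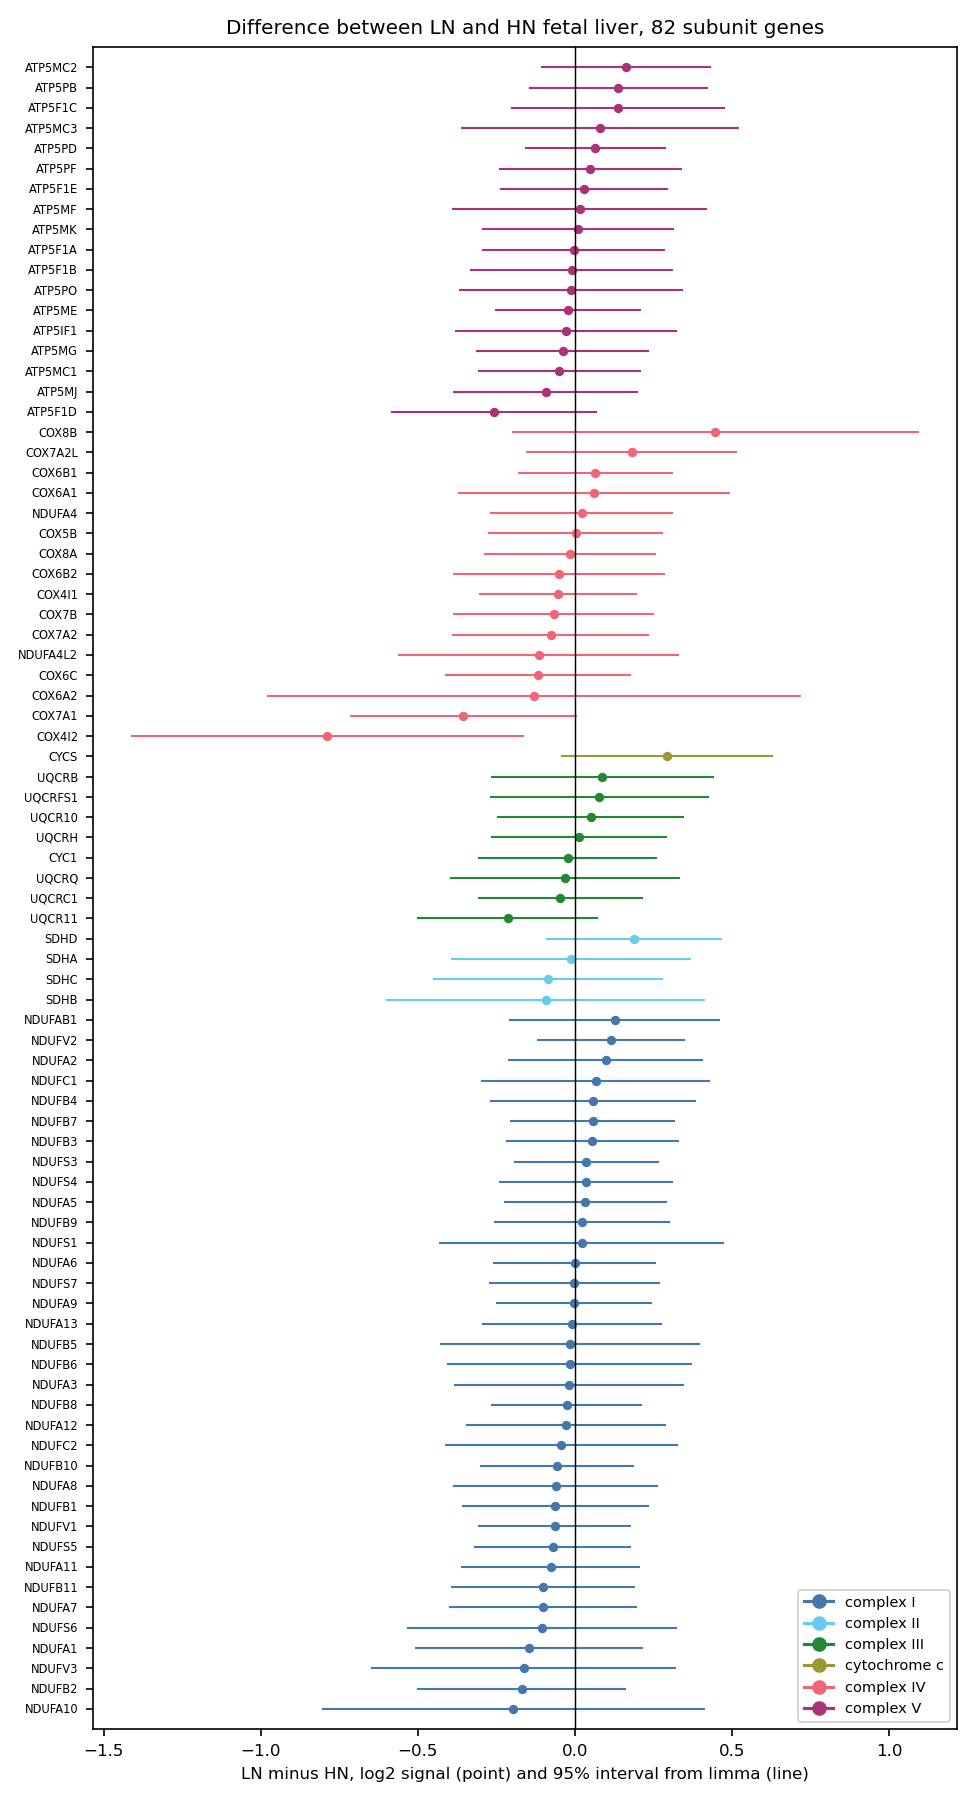
LN minus HN difference in log2 signal (x axis) with its 95% limma interval for 82 of the subunit genes (y axis), coloured by complex, 4 fetuses a group. Of those drawn, only the interval of COX4I2 leaves out 0 (-1.41 to -0.165), and that of COX7A1 ends at 0.0023.

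The counts of higher and lower genes turned on single fetuses. Without HN fetus L2 or LN fetus L6, 50 of the 83 genes were higher in LN in place of 33, and without HN fetus L3 only 20 were. The median difference was 0.034 without L2, 0.022 without L10 and 0.019 without L6, and -0.064 without L3, so its sign is not settled by these 8 fetuses. The medians of complexes I to V also took both signs as single fetuses were left out, from -0.064 without L3 to 0.023 without L2 in complex I and from -0.063 without L3 to 0.064 without L2 in complex V.

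Complex I, the NADH dehydrogenase, had 36 of its 37 listed genes detected, of which 12 had a higher and 24 a lower mean in LN (median -0.018, from -0.197 to 0.126). The subunits that take electrons from NADH gave values on both sides of 0: NDUFV2, which holds an iron-sulfur cluster, differed by 0.11 (SE 0.10), NDUFS1, the largest iron-sulfur subunit, by 0.021 (SE 0.20), and NDUFV1, which binds NADH and the flavin, by -0.065 (SE 0.11; -0.105 without L1 and -0.025 without L5). NDUFV2 was 14.09, 13.95, 14.01 and 13.94 in LN and 13.85, 13.96, 13.91 and 13.82 in HN. Its groups overlapped only through HN fetus L2, which lay above L6 and L9 (exact permutation p = 0.0857, 2-sided). Its limma p was 0.293 before adjustment.

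The subunits around the quinone site, where complex I hands its electrons on, stood close to 0 where given here. NDUFS3 differed by 0.035 (SE 0.10; 0.0090 without L8 and 0.059 without L10) and NDUFS7 by -0.0019 (SE 0.118). NDUFS8 had 0 matched probes and was not analysed here. NDUFAB1, the mitochondrial acyl carrier protein, which also serves fatty acid synthesis, had the highest difference of the complex, 0.13 (SE 0.15). NDUFAB1 was 14.85, 14.44, 14.61 and 14.45 in LN and 14.47, 14.7, 14.24 and 14.44 in HN, with L5 the highest of all fetuses and L3 the lowest (exact permutation p = 0.457, 2-sided). Without L5 the difference was 0.0375 and without L3 0.0512.

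The largest negative differences of complex I were in accessory subunits. NDUFA10 was 10.27, 9.51, 10.49 and 9.67 in LN and 10.14, 10.46, 9.66 and 10.47 in HN. Each group held 2 fetuses or more above 10 and at least 1 below it, and the difference of -0.197 (SE 0.267) went to -0.039 without L6 and to -0.37 without L3. NDUFB2 was 11.88, 11.58, 11.84 and 11.8 in LN and 11.78, 12.17, 11.72 and 12.12 in HN, a difference of -0.17 (SE 0.145, exact permutation p = 0.286, 2-sided; -0.096 without L2, -0.104 without L6 and -0.113 without L10), with L2 and L10 above all LN fetuses and L1 and L3 among them. The other 27 genes of the complex lay between -0.164 and 0.098, with 8 higher and 19 lower.

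Complex II, succinate dehydrogenase, links the citric acid cycle to the chain, and its 4 genes were all detected. SDHA, the flavoprotein that oxidises succinate, differed by -0.013 (SE 0.17), SDHB, which carries the iron-sulfur clusters, by -0.094 (SE 0.22), and SDHC, a membrane anchor, by -0.087 (SE 0.16). SDHD, the other anchor, was 12.21, 11.89, 11.89 and 11.81 in LN and 11.82, 11.8, 11.7 and 11.74 in HN. Only L9 of the LN fetuses lay below the highest HN fetus, L1, and the difference was 0.19 (SE 0.12, adjusted limma p = 0.825, exact permutation p = 0.0571, 2-sided). L5 stood above the rest, and without it the SDHD difference was 0.10. SDHB was 10.59, 10.01, 10.7 and 10.21 in LN and 10.52, 10.7, 9.94 and 10.72 in HN, so the LN values lay within the range of the HN values.

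Complex III, which oxidises ubiquinol, had 8 of 9 listed genes detected, 4 higher and 4 lower in LN. UQCRC2, a core protein, had 0 matched probes and was not analysed here. The subunits that carry electrons stood near 0: UQCRFS1, the Rieske iron-sulfur protein, differed by 0.076 (SE 0.15) and CYC1, cytochrome c1, by -0.024 (SE 0.12). UQCRC1, the other core protein, differed by -0.047 (SE 0.11), and UQCRB, a small subunit near the quinone site, by 0.087 (SE 0.155). Without L3 the differences of UQCRFS1 and UQCRB were 0.0017 and 0.011, while UQCRFS1 was 0.18 without L6 and UQCRB 0.186 without L2. UQCR11, the smallest subunit, had the largest difference of the complex. It was 12.83, 12.83, 12.96 and 13 in LN and 12.96, 13.24, 12.97 and 13.31 in HN, with L2 and L10 above all other fetuses (difference -0.21, SE 0.13, adjusted limma p = 0.806, exact permutation p = 0.143, 2-sided). Under normexp background correction UQCR11 was the 1 subunit gene at an unadjusted p of 0.05, in place of COX4I2. The other 3 genes of the complex lay between -0.033 and 0.050.

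Cytochrome c, which ferries electrons from complex III to complex IV and also takes part in cell death, had the largest difference among the electron carriers. CYCS was 9.6, 9.28, 9.33 and 9.44 in LN and 9.35, 9.29, 8.97 and 8.88 in HN. The HN fetuses L3 and L10 lay below all others, while L1 and L2 lay among the LN fetuses. The difference was 0.29 (SE 0.147, 95% interval -0.043 to 0.625, adjusted limma p = 0.788, exact permutation p = 0.143, 2-sided), and the second probe gave 0.21. Leaving out single fetuses gave 0.21 to 0.37, and without L1 the unadjusted limma p was 0.0485.

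**Figure D3:**
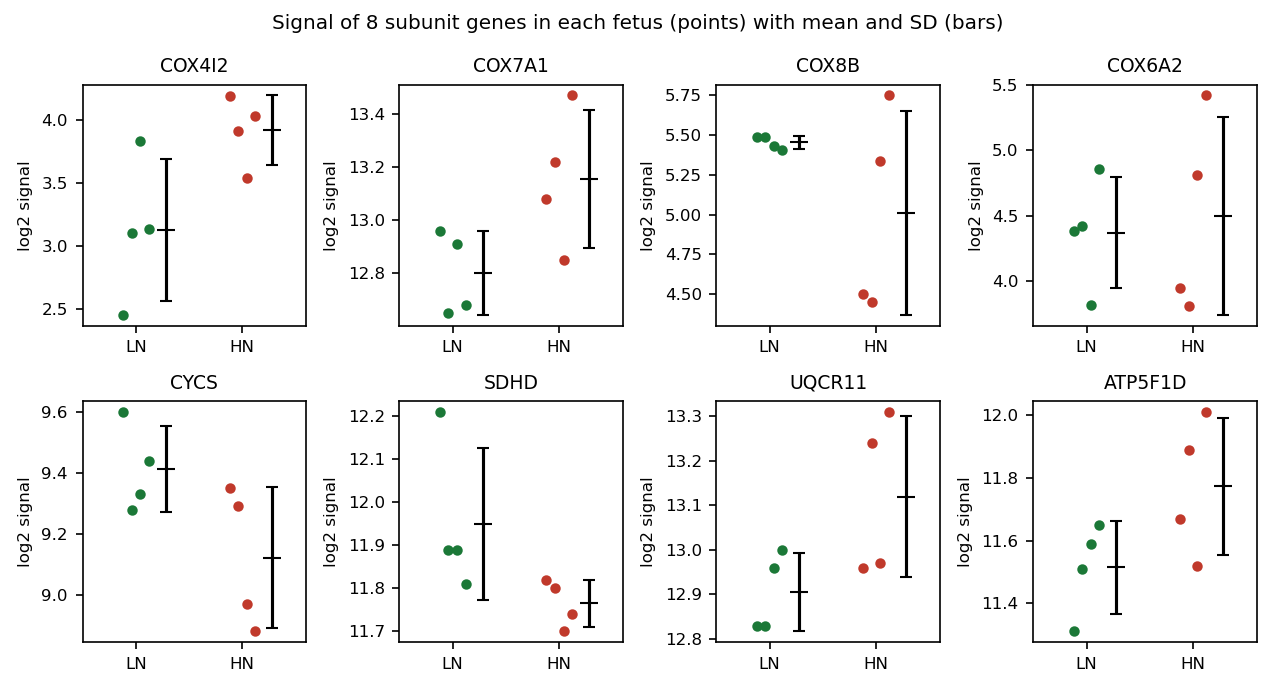
Log2 signal (y axis, a scale of its own in each panel) of 8 subunit genes in each of 4 LN and 4 HN fetuses (points), with the group mean and SD (bars). In COX4I2 only LN fetus L8 (3.83) lies inside the HN range (3.54 to 4.19), and in SDHD, CYCS, UQCR11 and ATP5F1D the groups overlap as well.

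Complex IV, cytochrome c oxidase, showed the widest range of differences. The widest were in the isoforms COX4I2, COX8B and COX7A1, while the isoforms COX6A2, COX6B2 and NDUFA4L2 differed by less. COX4I2 and COX8B were dim, with group means of 3.13 to 5.45, beside a median signal of 13.2 in the complex. Under normexp, 0 genes were over 1.25-fold. Of 21 listed genes 16 were detected, 6 higher and 10 lower in LN (median -0.053, from -0.79 to 0.45). COX4I2, an isoform of subunit 4 known from lung and from low oxygen, was 2.45, 3.1, 3.83 and 3.13 in LN and 4.19, 3.91, 3.54 and 4.03 in HN. All LN fetuses but L8 lay below all HN fetuses. The difference was -0.79 (SE 0.275, adjusted limma p = 0.76, unadjusted p = 0.019, exact permutation p = 0.0571, 2-sided). COX4I2 was the 1 member not well above background on all 8 arrays: it passed on 3 of 4 LN arrays and 4 of 4 HN arrays, and the lowest signal well above background on an array was between 2.36 and 2.98. The value of L5 (2.45) lay below that of its own array (2.8), so the size of the difference rests in part on a signal under that level. Without L5 the difference was -0.56, and its unadjusted limma p was 0.0412. Under normexp, which raises dim signals by an offset, its difference was -0.17, and its unadjusted limma p was 0.053 with the position on the slide as a block and 0.0514 without HN fetus L1. COX4I1, the general isoform of subunit 4, differed by -0.055 (SE 0.11; -0.103 without L3 and -0.026 without L5).

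COX7A1, the heart and muscle isoform of subunit 7A, was 12.96, 12.65, 12.91 and 12.68 in LN and 13.08, 13.22, 12.85 and 13.47 in HN. HN fetus L3 lay below LN fetuses L5 and L8, and the other 3 HN fetuses lay above all LN fetuses. The difference was -0.355 (SE 0.157, adjusted limma p = 0.785, unadjusted p = 0.0512, exact permutation p = 0.0857, 2-sided), and the second probe gave -0.31. Without L3 it was -0.46 and without L10 -0.25. COX7A2, the isoform usual in liver, differed by -0.078 (SE 0.14), and COX7A2L, a related protein that joins complexes III and IV, by 0.18 (SE 0.15). The COX7A2L difference was 0.090 without L5 and 0.236 without L1, and that of COX7A2 was -0.167 without L5 and -0.0072 without L2.

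COX8B, the heart and muscle isoform of subunit 8, was 5.49, 5.49, 5.43 and 5.41 in LN and 4.5, 4.45, 5.34 and 5.75 in HN. The LN fetuses lay within 0.1 of each other, while the HN fetuses L1 and L2 lay far below them, L3 just below and L10 above (difference 0.445, SE 0.283, exact permutation p = 0.314, 2-sided). The COX8B difference was 0.69 without L10, 0.26 without L2, 0.275 without L1, 0.28 with scaling to the 75th percentile and 0.094 under normexp. COX6A2, the heart and muscle isoform of subunit 6A, was 4.38, 4.42, 3.82 and 4.86 in LN and 3.95, 3.81, 4.81 and 5.42 in HN, a difference of -0.13 (SE 0.37) that was 0.16 without L10 and 0.054 without L8. COX6A2 and COX8B thus had L3 and L10 above L1 and L2 within HN, while COX7A1 had L3 lowest. The general isoforms COX8A and COX6A1 differed by -0.016 (SE 0.12) and 0.060 (SE 0.19).

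HN fetus L10 had the highest signal of all 8 fetuses for COX7A1, COX8B and COX6A2, and also for 3 of the 4 detected striated muscle and heart markers. MB, myoglobin, was 5.85 in L10 and 3.86 to 4.43 in the others, MYH7, a slow muscle and heart myosin, was 7.64 against 5.05 to 5.51, and ACTC1, cardiac actin, was 7.26 against 6.44 to 6.82. TNNI3, cardiac troponin I, was 3.98 in L10 and highest in L8 (4.33), while TNNT2, MYL2 and CKM were not detected. The summed signal of the 4 markers was 8.74 in L10, 7.26 to 7.52 in the other HN fetuses and 7.25 to 7.48 in LN. COX7A1, at 12.65 to 13.47, was brighter than these markers in every fetus, and L1 and L2 also lay above all LN fetuses for it. The part of the muscle and heart markers in the isoform values was not tested.

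The other pairs in complex IV differed little between groups. COX6B1 differed by 0.064 (SE 0.11; 0.013 without L1 and 0.107 without L10) and COX6B2, its testis-type relative, by -0.051 (SE 0.15). That COX6B2 probe had means of 10.68 in LN and 10.73 in HN, while the second probe, far dimmer at 5.0 and 4.96, gave 0.039. COX7B differed by -0.068 (SE 0.14), and COX7B2 was well above background on only 1 array and was left out. NDUFA4, once assigned to complex I, differed by 0.021 (SE 0.127), and NDUFA4L2, its relative known from low oxygen, by -0.12 (SE 0.195). NDUFA4L2 was 8.44 in L10 and between 7.6 and 8.08 in the others, and without L10 its difference was 0.044. COX5B, a zinc-binding subunit, differed by 0.0014 (SE 0.12), and COX6C, the 1 remaining gene, by -0.118 (SE 0.129). For COX5A, COX7C, COX8C and the pseudogene COX7ALP1 there were 0 matched probes, and these genes were not analysed here.

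Complex V, the ATP synthase, had all 18 listed genes detected, 9 higher and 9 lower in LN (median 0.0028). The catalytic core stood close to 0 or above: ATP5F1A, the alpha subunit, differed by -0.0040 (SE 0.13), ATP5F1B, the beta subunit that holds the catalytic sites, by -0.011 (SE 0.14), and ATP5F1C, the gamma subunit of the rotating stalk, by 0.14 (SE 0.15). The ATP5F1C difference was 0.045 without L3 and 0.23 without L2. ATP5IF1, the inhibitor that stops the enzyme from running backwards, differed by -0.029 (SE 0.15). ATP5F1D, the delta subunit of the stalk, was 11.31, 11.51, 11.59 and 11.65 in LN and 11.67, 11.89, 11.52 and 12.01 in HN. All HN fetuses but L3 lay above all LN fetuses (difference -0.26, SE 0.143, adjusted limma p = 0.799, exact permutation p = 0.114, 2-sided). The second probe gave -0.34, and without L3 the unadjusted limma p was 0.0451.

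Separate genes encode the same mature c subunit of the membrane ring, and their differences lay on both sides of 0. ATP5MC2 was 14.76, 14.77, 14.74 and 14.99 in LN and 14.6, 14.55, 14.64 and 14.84 in HN, where L10 alone lay among the LN fetuses (difference 0.16, SE 0.118, exact permutation p = 0.114, 2-sided; 0.10 without L9). ATP5MC3 differed by 0.080 (SE 0.19) and ATP5MC1 by -0.050 (SE 0.11; -0.093 without L1 and -0.0069 without L2). The 3 ATP5MC2 probes ran from 0.0067 to 0.16. The other 10 genes of complex V lay between -0.094 and 0.138, with 6 higher and 4 lower.

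Probes for 1 gene mostly gave the same sign. Of 51 subunit genes with more than 1 detected probe, 6 had probes in both directions (NDUFS1, NDUFB4, COX5B, COX6B1, COX6B2 and ATP5F1A). The widest disagreement was in NDUFS1, whose 5 probes ran from -0.0032 to 0.29, and the next in NDUFV1, whose 2 probes gave -0.29 and -0.065. Of 170 detected probes for the subunit genes, 0 were higher and 1 lower at an unadjusted limma p of 0.05, beside 3.35% and 2.97% of all detected probes. Probe sequences were not used here, so cross-hybridisation between related genes was not examined.

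What the subunit genes shared was the fetus in which they were high or low, across the complexes and in both groups. In HN fetus L2, 71 of the 83 genes (85.5%) stood above their own mean over the 8 fetuses, and in L10, 66 did (79.5%). In HN fetuses L1 and L3 only 18 and 13 did (21.7% and 15.7%). Within LN, 63 stood above in L5 and 54 in L8 (75.9% and 65.1%), and 23 each in L6 and L9 (27.7%). Over all 10860 genes the share above the mean was between 46.2% and 53% in every fetus. Quantile normalization gives every array the same distribution of signals, so this share is largely set by the processing. It does not show how far other sets of genes move together in a fetus, which was not tested.

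The shift was small in size. The median deviation of the 83 genes was 0.099 in L5, -0.078 in L6, 0.037 in L8 and -0.051 in L9, and -0.081 in L1, 0.157 in L2, -0.138 in L3 and 0.098 in L10. For all genes it lay between -0.016 and 0.017, a range that quantile normalization keeps narrow. The SD of the subunit median was 0.0817 within LN, 0.141 within HN and 0.115 within groups when both were pooled, beside a median difference of -0.015 between the groups.

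**Figure D4:**
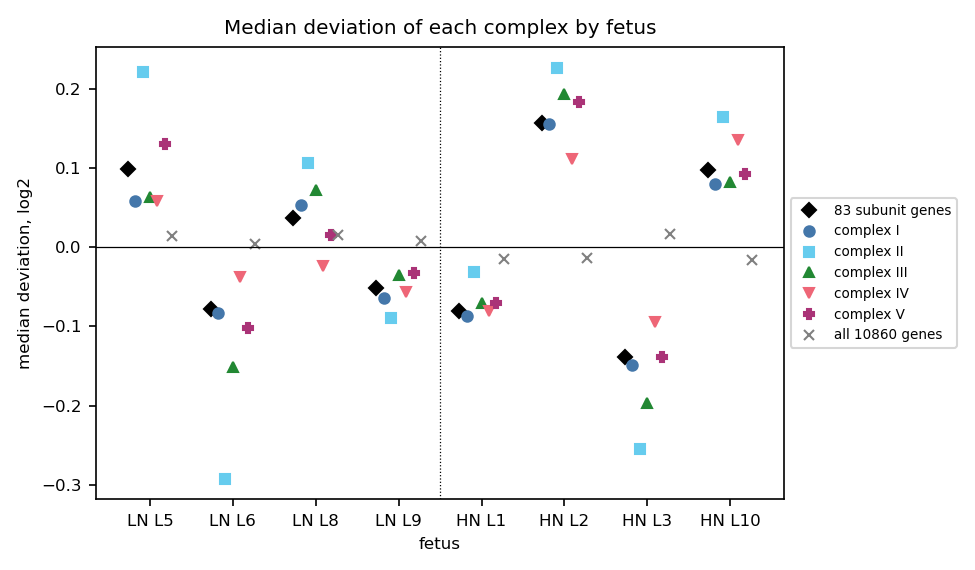
Median deviation (y axis, log2 signal minus each gene's mean over 8 fetuses) in each LN and HN fetus (x axis) for all 83 subunit genes, for each complex and for all 10860 detected genes. The subunit median runs from -0.138 in L3 to 0.157 in L2. That of all genes, which quantile normalization keeps in a narrow range, stays between -0.016 and 0.017.

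The order held in most complexes. In complex V, 0 of 18 genes stood above their mean in L3, which had the lowest HN value for 14 of them, and 16 did in L2. In complex III, 8 of 8 genes stood above their mean in L2 and 1 of 8 in L3. In complex I the counts were 31 of 36 in L2 and 7 in L3, and in complex II 3 of 4 and 0. Complex IV differed in that L10 led, with 15 of 16 genes above their mean, against 12 in L2. Cytochrome c went another way, with its highest HN value in L1 and its lowest in L10. Within LN, L5 had the highest value for 44 of the 83 genes, and L6 and L9 the lowest for 35 and 23.

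**Figure D5:**
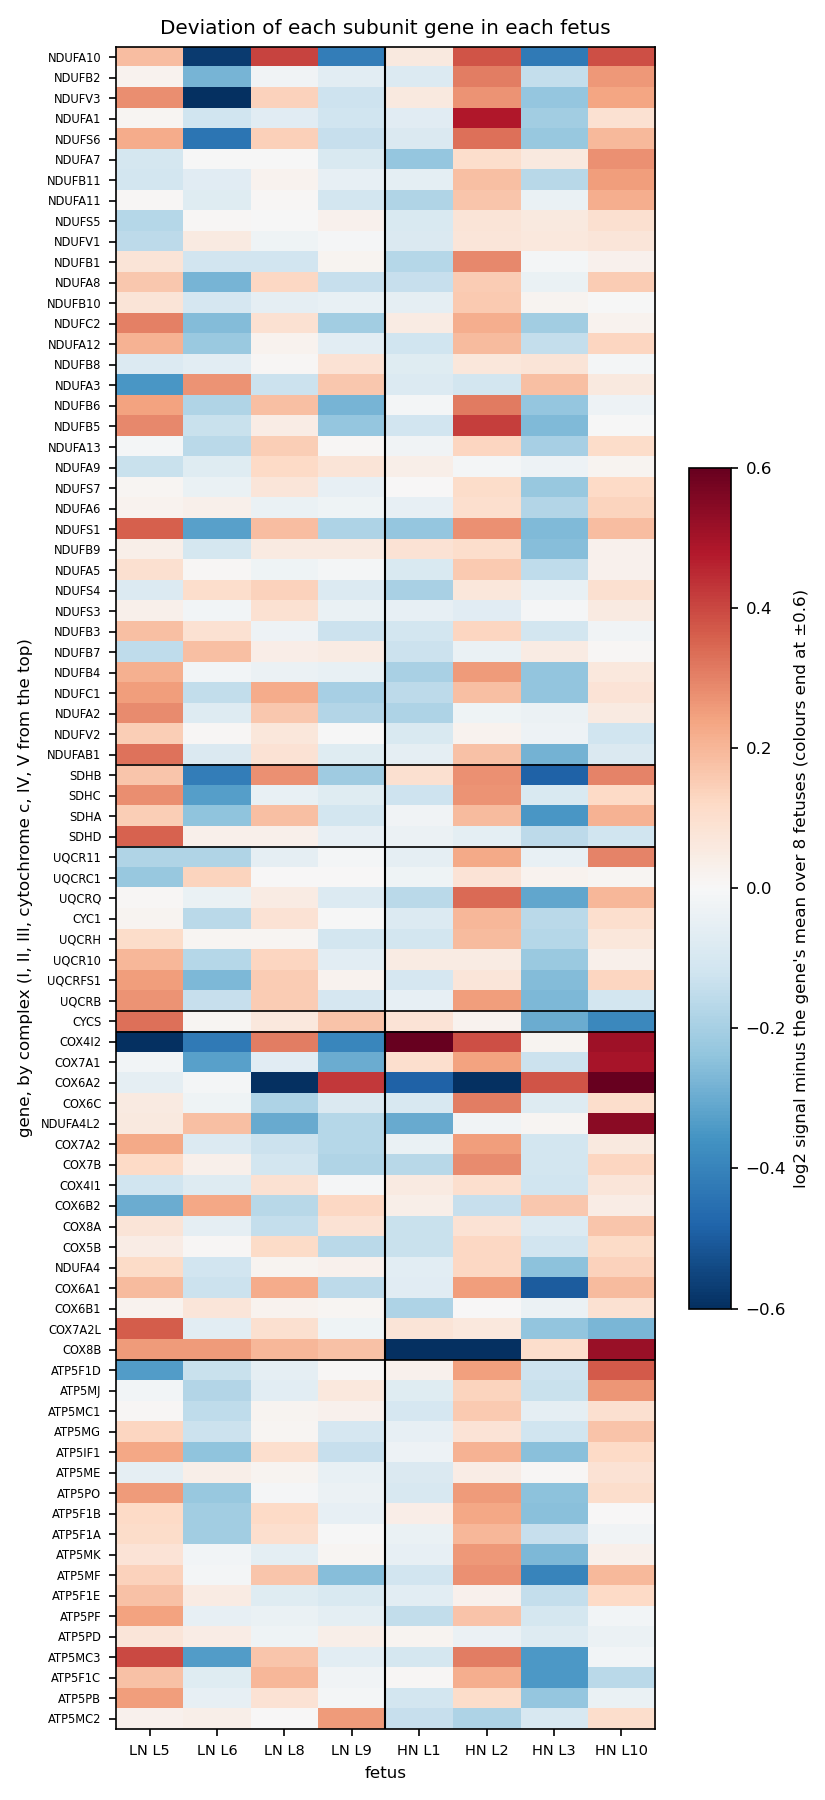
Deviation of log2 signal from the gene's mean over 8 fetuses (colour, ending at ±0.6) for 82 of the subunit genes (rows, by complex and by LN minus HN difference) in each fetus (columns). Columns L2 and L10 are mostly above the mean (71 and 66 of all 83 genes) and column L3 mostly below it (13 above).

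Array brightness and markers of other cells moved with this order in part. Before normalization the 75th percentile of the log2 signal was 9.72 in L5, 9 in L6, 9.47 in L8 and 9.05 in L9, so that the brighter LN arrays were those with higher subunit signals. In HN it was 9.49 in L1, 9.62 in L2, 9.28 in L3 and 9.17 in L10, where the dimmest array had the second highest subunit median. L5 was the fetus with the high erythroid signal, and L2 had the highest summed signal of 8 stellate and fibroblast markers (17.26, and 16.13 to 16.58 in the others). The part of brightness and cell makeup in the order of the fetuses was not tested.

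Of 97 detected genes that build, regulate and feed the chain, 0 passed an adjusted limma p of 0.05, as did 0 of all 10860 genes. Their differences ran from -0.758 to 0.732, and 12 of them (12.4%) were over 1.25-fold, beside 3 of 83 subunit genes and 16.4% of all genes. At an unadjusted limma p of 0.05 there were 6 (6.19%), beside 6.05% of all genes, and 3 (3.09%) had groups without overlap, beside 4.14% of all genes. Of the assembly factors, 13 of 16 detected for complex I had a higher mean in LN (median 0.161, and 0.0972 under normexp), 3 of 4 for complex II (0.038), 5 of 7 for complex III (0.012), 10 of 19 for complex IV (0.017) and 3 of 4 for the ATP synthase (0.142, but 0.035 without L8, 0.047 without L3, 0.245 without L6 and 0.040 with scaling to the 75th percentile). NDUFAF4, a complex I assembly factor, was 6.67, 5.81, 6.39 and 6.15 in LN and 5.83, 5.37, 5.95 and 4.93 in HN. L6 alone of the LN fetuses lay below L1 and L3 (difference 0.73, SE 0.262, adjusted limma p = 0.76, unadjusted p = 0.0213, exact permutation p = 0.0857, 2-sided).

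Among complex IV assembly factors, COX14, which acts early in making COX1, was 12.39, 12.43, 12.32 and 12.26 in LN and 12.45, 12.73, 12.57 and 12.73 in HN. All LN fetuses lay below all HN fetuses, with L6 close under L1 (difference -0.27, SE 0.114, adjusted limma p = 0.785, exact permutation p = 0.0286, 2-sided, the smallest that 4 against 4 allows). HIGD2A, which aids complex IV and supercomplex assembly, was 4.87, 4.85, 5.45 and 5.16 in LN and 5.48, 5.72, 5.14 and 5.91 in HN, with only L3 among the LN fetuses (difference -0.48, SE 0.203, adjusted limma p = 0.785, exact permutation p = 0.0857, 2-sided). These 2 were the only genes of 19 in that list at an unadjusted p of 0.05, where 2.75% of all genes were lower in LN.

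For the upkeep and transcription of mitochondrial DNA, 9 of 10 detected genes had a higher mean in LN (median 0.158, between 0.107 without L1 and 0.237 without L3). TEFM, the mitochondrial transcription elongation factor, was 8.09, 7.91, 8.15 and 7.94 in LN and 7.82, 7.44, 7.52 and 7.44 in HN, and all LN fetuses lay above all HN fetuses (difference 0.47, SE 0.13, adjusted limma p = 0.76, exact permutation p = 0.0286, 2-sided). TFAM, which packages and transcribes the mitochondrial genome, differed by 0.039 (SE 0.13). For the 13 subunits encoded in the mitochondrial genome there were 0 matched probes, and they were not analysed here.

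Of 8 detected nuclear regulators of mitochondrial genes, 6 had a higher mean in LN (median 0.118, but 0.013 without L9, 0.039 without L6, 0.059 without L2 and -0.00857 with scaling to the 75th percentile). PPARGC1A, the coactivator that drives mitochondrial biogenesis and hepatic glucose production, was 8.79, 9.09, 8.79 and 9.3 in LN and 9.89, 9.14, 9.53 and 9.01 in HN. L1 and L3, the HN fetuses with the lowest subunit medians, had its highest values (difference -0.40, SE 0.217, adjusted limma p = 0.795, exact permutation p = 0.143, 2-sided). Without L1 the difference was -0.23 and without L10 -0.53. ESRRA, a nuclear receptor that works with it, differed by -0.049 (SE 0.13). NRF1 and GABPA, factors that bind promoters of subunit genes, differed by 0.15 (SE 0.27) and 0.039 (SE 0.17), and by -0.017 and -0.058 with scaling to the 75th percentile, which also gave TFAM -0.011.

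Of 29 detected carriers and shuttles that feed the chain or exchange its products, 18 had a higher mean in LN (median 0.067). ETFA, a subunit of the flavoprotein that brings electrons from fatty acid oxidation, was 10.69, 10.54, 10.61 and 10.54 in LN and 10.2, 10.36, 10.29 and 10.39 in HN, with all LN fetuses above all HN fetuses (difference 0.285, SE 0.105, adjusted limma p = 0.76, exact permutation p = 0.0286, 2-sided). UCP2, a mitochondrial carrier of the uncoupling protein family, was 7.47, 6.58, 7.3 and 6.41 in LN and 7.24, 7.46, 7.95 and 8.13 in HN. L6 and L9 lay below all others and L5 and L8 among the HN fetuses (difference -0.76, SE 0.291, adjusted limma p = 0.768, exact permutation p = 0.143, 2-sided). ETFA and UCP2 were the only genes of this list at an unadjusted p of 0.05, 1 in each direction, where 3.3% of all genes were higher and 2.75% lower. COX14, TEFM and ETFA were the 3 genes of these lists whose groups did not overlap, a share no higher than that of all genes. Leaving out single fetuses turned the medians of complex III assembly (-0.032 without L1, 0.079 without L2), complex IV assembly (-0.014 without L5, 0.036 without L6) and the carriers and shuttles (-0.0032 without L8, 0.098 without L10), and moved that of complex II assembly between 0.011 without L8 and 0.129 without L10.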

How the data were processed

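The authors deposited, for each array, scanner output of Agilent Feature Extraction 11.0.1.1 with a background-subtracted intensity per spot, not normalized between arrays. They also deposited log2 values of 31068 probes, which quantile normalization of the scanner intensities over those probes returned to within 0.0423 with outlier spots kept, and to within 0.161 over 31061 probes without them.

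Here control spots and 16 probes with outlier marks were dropped, repeated spots were averaged as log2, and quantile normalization ran over 43637 probes, of which 33439 were detected. Accessions named 26740 probes through the reference table (ARS-UCD2.0). The array was designed on another build, so no coordinates are given. LN and HN were set against each other in limma (version 3.58.1, R 4.3.3), with moderated 2-sided p-values adjusted by Benjamini-Hochberg over detected probes, and by exact permutation over all 70 divisions of the fetuses. The functions were tested on simulated data.

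Members and lists were chosen with earlier results of these data known. Named genes were those at an unadjusted p of 0.05 or without overlap, the 2 largest differences per complex, core subunits, isoform pairs, and 5 regulators. Values of 1 such subunit gene are not reported here, and the counts include it. Alternatives were 75th percentile scaling, normexp with an offset of 50, the authors' log2 table, no filter, detection on every array, trend and robust eBayes, probe means, slide position as a block, a per-probe Student's test and each fetus left out. P-values measure the spread between these 8 arrays, whose number limits the precision.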

Additional observations from a re-analysis of the deposited data

Results flagged for a closer look

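In 4 of 118 groups of 4 values tested, 1 fetus stood apart from the other 3 by Dixon's criterion, and chance gives about 1 in 20. ATP5MC1, a gene for the c subunit of the ATP synthase, was 13.89 in LN fetus L6 and 14.05 to 14.07 in the other LN fetuses. ATP5MC2, another gene for that subunit, was 14.99 in LN fetus L9 and 14.74 to 14.77 in the others, and without L9 its difference was 0.10 in place of 0.16. COX6B1, of complex IV, was 14.56 in LN fetus L6 and 14.5 to 14.51 in the others. NDUFV1, the NADH-binding subunit of complex I, was 13.1 in HN fetus L1 and 13.25 to 13.26 in the others.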

How the results depend on the processing

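The number of subunit genes at an adjusted p of 0.05 was 0 in every alternative run, and the median difference lay between -0.029 and -0.0070 in those that kept all fetuses. At an unadjusted p of 0.05, Student's test gave 1 gene higher in LN (NDUFV2, 0 with limma), and 2 genes were lower with no filter on dim probes and with trend and robust settings (COX7A1 beside COX4I2), and 0 with slide position as a block. The 1 lower gene was COX7A1 in place of COX4I2 in the authors' table and with detection on all 8 arrays, and UQCR11 under normexp. Without L1 the 1 gene was CYCS, higher in LN. With scaling to the 75th percentile, 2 genes had groups without overlap (COX4I2 and SDHD, beside 5% of all genes), and 45.6% of all genes were higher in LN in place of 51.6%. Leaving out 1 fetus at a time gave 20 to 50 genes higher in LN, 0 to 1 higher and 0 to 3 lower at an unadjusted p of 0.05, and 0 to 5 without overlap. The 5 came without L1, where 6.67% of all genes had no overlap, and the 3 lower genes without L3 (COX4I2, COX7A1 and ATP5F1D) stood beside 3.6% of all genes.

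Of 42 named subunit genes, 21 kept their direction in every alternative, 19 turned without some fetus and 6 in another setting. With normexp, COX8A was 0.0048, NDUFS3 -0.0062, NDUFS7 0.022 and SDHA 0.011. With probe means, COX5B was -0.013 and COX6B1 -0.035. With scaling to the 75th percentile, NDUFS7 was 0.0087, GABPA -0.058, NRF1 -0.017 and TFAM -0.011. The cause was not tested. COX4I2 could not be fitted in the authors' table or with detection on all 8 arrays, since its probe did not pass the background test on 1 LN array.

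Leaving out 1 fetus at a time, the differences of the genes that turned ran as follows, from lowest to highest: ATP5F1A -0.051 to 0.066, ATP5F1B -0.095 to 0.063, ATP5IF1 -0.12 to 0.047, ATP5MC3 -0.038 to 0.20, COX5B -0.043 to 0.056, COX6A1 -0.095 to 0.15, COX6A2 -0.36 to 0.16, COX6B2 -0.14 to 0.038, COX7B -0.14 to 0.014, COX8A -0.064 to 0.037. For the rest they ran as CYC1 -0.081 to 0.038, NDUFA4 -0.058 to 0.072, NDUFA4L2 -0.23 to 0.044, NDUFS1 -0.096 to 0.13, NDUFS7 -0.079 to 0.039, SDHA -0.13 to 0.067, SDHB -0.27 to 0.029, SDHC -0.19 to 0.011, UQCRC1 -0.099 to 0.021, ESRRA -0.11 to 0.039, GABPA -0.053 to 0.13, NRF1 -0.023 to 0.31 and TFAM -0.022 to 0.14.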
